A study of Mus musculus with 2 samples.

Results

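Transcription factors often bind DNA far from any gene, and such distant regions are described here for Etv4 and Etv5 in mouse EpRas cells. A region was taken as far when its midpoint lay on a nuclear chromosome, outside every gene of the GENCODE annotation of mm10, and more than 50 kb from the nearest annotated transcript start. Under this rule 758 of 13636 Etv4 regions (5.56%) and 519 of 8297 Etv5 regions (6.26%) were far regions, which gave 1277 of 21933 regions (5.82%) over both lists. The rule used only position in the genome, so overlap between the lists, sequence and neighbouring genes were not part of it.

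EpRas cells derive from EpH4, an epithelial line of the mouse mammary gland, by transformation with H-Ras. All cells received 1 ng/ml TGF-β3 for 1.5 h in medium with 4% serum before fixation. A rabbit polyclonal antibody pulled down Etv4 and a mouse monoclonal antibody pulled down Etv5, in 1 ChIP-seq library each. Without a replicate, an input library or untreated cells in this comparison, a difference between the lists cannot be told apart from a difference between the antibodies or the depth of the libraries, and no test between them was possible. The files hold no read counts, so depth is unknown. Intervals in brackets are exact (Clopper-Pearson) 95% binomial intervals, and differences of shares carry Newcombe 95% intervals. They describe counting error alone and take each region as an independent observation, which neighbouring regions need not be.

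Etv4 and Etv5 belong to the PEA3 group of ETS transcription factors, which act downstream of Ras and MAP kinase signalling and recognise DNA with a GGAA core. AP-1, a dimer of Fos and Jun proteins, also responds to Ras signalling and often binds next to ETS factors in enhancers. Enhancers are stretches of DNA that raise transcription of a gene from a distance, and genes for developmental regulators are often flanked by long gene-free stretches that contain several of them.

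The sequences below are examples from the 3 kinds of far regions, chosen by the patterns they carried. Far Etv4 regions with 1 bp or more in common with an Etv5 region are called shared, and those without such an overlap are called Etv4-only. Far Etv5 regions that overlapped no Etv4 region are called Etv5-only. For each kind, the 2 regions with the lowest numbers in the deposited list that carried both an ETS and an AP-1 pattern in their central 500 bp are shown, with mostly multicopy regions (defined further on) left out. Regions with both patterns were few, with 14 of 322 shared, 18 of 436 Etv4-only and 2 of 194 Etv5-only ones. The examples are thus not typical of their kind. Capitals mark the ETS pattern (CAGGAAGT or CCGGAAGT) and the AP-1 pattern (TGACTCA or TGAGTCA), read on either strand, and each stretch is the plus strand of mm10. The shared regions were at chr2:71644053-71644252, with 3 bp between the patterns, and chr2:148522103-148522302, with 35 bp. The nearest protein-coding genes were Dlx2 and Cd93. Etv4-only regions were at chr2:125015150-125015349 near Slc24a5 and chr4:89515059-89515258 near Dmrta1. Etv5-only regions were at chr19:15600630-15600829 near Psat1 and chr15:61438614-61438813 near A1bg. In the second Etv5-only region the patterns were 230 bp apart, so the stretch, which begins before the region itself, shows the ETS pattern and not the AP-1 pattern.
Shared region near Dlx2: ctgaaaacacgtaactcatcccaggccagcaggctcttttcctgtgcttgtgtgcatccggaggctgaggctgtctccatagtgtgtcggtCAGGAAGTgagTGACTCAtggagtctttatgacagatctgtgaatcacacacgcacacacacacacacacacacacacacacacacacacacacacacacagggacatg
Shared region near Cd93: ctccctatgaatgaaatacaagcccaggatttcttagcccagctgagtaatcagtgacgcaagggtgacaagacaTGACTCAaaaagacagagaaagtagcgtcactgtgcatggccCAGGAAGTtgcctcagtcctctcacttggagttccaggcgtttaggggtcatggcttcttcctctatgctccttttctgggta
Etv4-only region near Slc24a5: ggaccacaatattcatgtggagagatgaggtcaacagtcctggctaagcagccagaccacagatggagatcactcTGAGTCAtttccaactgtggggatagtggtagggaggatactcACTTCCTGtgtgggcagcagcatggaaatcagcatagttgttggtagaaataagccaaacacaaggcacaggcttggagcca
Etv4-only region near Dmrta1: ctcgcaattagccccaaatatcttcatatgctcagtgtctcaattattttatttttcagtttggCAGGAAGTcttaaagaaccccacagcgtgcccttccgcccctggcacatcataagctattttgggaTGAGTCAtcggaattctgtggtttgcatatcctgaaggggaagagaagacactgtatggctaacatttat
Etv5-only region near Psat1: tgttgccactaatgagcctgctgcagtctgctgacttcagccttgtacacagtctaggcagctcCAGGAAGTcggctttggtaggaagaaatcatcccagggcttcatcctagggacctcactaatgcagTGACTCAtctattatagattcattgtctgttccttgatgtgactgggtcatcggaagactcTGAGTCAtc
Etv5-only region near A1bg: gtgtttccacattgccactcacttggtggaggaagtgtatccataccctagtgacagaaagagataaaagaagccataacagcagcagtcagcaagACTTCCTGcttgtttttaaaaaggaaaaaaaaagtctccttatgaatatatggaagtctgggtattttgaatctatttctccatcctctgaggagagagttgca

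A second set shows AP-1 patterns in shared regions beside the 4 genes with most far loci among the gene lists described further on. Each stretch has 150 bp, and for each gene it comes from the shared region with an AP-1 pattern that had the lowest Etv4 number and was not mostly multicopy. They were located at chr16:92930227-92930376 (104 kb from the transcript start of Runx1), chr11:113001158-113001307 (219 kb from Sox9), chr4:55776060-55776209 (244 kb from Klf4) and chr1:186449339-186449488 (200.4 kb from Tgfb2).
Runx1 locus: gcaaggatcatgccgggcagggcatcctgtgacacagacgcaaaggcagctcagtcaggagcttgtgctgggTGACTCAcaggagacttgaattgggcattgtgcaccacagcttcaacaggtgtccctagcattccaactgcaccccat
Sox9 locus: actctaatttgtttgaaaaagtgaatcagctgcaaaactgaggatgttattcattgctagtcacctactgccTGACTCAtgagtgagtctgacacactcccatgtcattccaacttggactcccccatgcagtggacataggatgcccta
Klf4 locus: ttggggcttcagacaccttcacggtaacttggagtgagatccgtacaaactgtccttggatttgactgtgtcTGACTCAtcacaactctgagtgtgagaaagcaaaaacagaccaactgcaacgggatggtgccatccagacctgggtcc
Tgfb2 locus: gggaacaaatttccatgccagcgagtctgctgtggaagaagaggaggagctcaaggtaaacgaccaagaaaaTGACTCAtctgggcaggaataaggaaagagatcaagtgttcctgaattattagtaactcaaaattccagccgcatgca

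Far regions were sparse in comparison with the rest of the genome. The far territory, which is all sequence that meets the rule, covered 415 Mb or 15.7% of the known bases, in 4171 stretches with a median of 58.3 kb. It contained 1.83 Etv4 regions per Mb, compared with 5.77 per Mb in the remaining genome. For Etv5 the densities were 1.25 and 3.48 per Mb. The remaining genome was thus denser by a factor of 3.15 for Etv4 and 2.78 for Etv5. Without regions of mostly multicopy sequence, which are described further on, the factors were 3.64 and 3.86, so the order of the lists turned. Multicopy sequence stayed among the counted bases of the far territory and of the remaining genome.

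The lists were next compared within the far territory. Of the far Etv4 regions, 322 of 758 (42.5%, 38.9 to 46.1%) overlapped an Etv5 region, while the share over the whole Etv4 list was 37.8%. Of the far Etv5 regions, 325 of 519 (62.6%, 58.3 to 66.8%) overlapped an Etv4 region, beside 63.2% over the whole Etv5 list. Far Etv4 regions exceeded all other Etv4 regions by 5.00 percentage points (1.43 to 8.65), but intergenic regions between 2 and 50 kb from a start had almost the same share (43.6%), with a difference of -1.08 points (-4.93 to 2.82). For Etv5 the difference from all other regions was -0.558 points (-4.93 to 3.64). Merging overlapping far regions of both lists gave 950 loci, of which 320 were in both lists, 436 in the Etv4 list only and 194 in the Etv5 list only.

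Overlap followed the number that each region carries in its list. The files do not explain this number, and low numbers tend to fall on long regions. Each list was divided by number into 4 equal parts. In the part of the Etv4 list with the lowest numbers, 142 of 184 far regions (77.2%) overlapped an Etv5 region, and in the part with the highest numbers 46 of 209 (22.01%) did. In the Etv5 list the share fell from 131 of 138 (94.9%) in the first part to 45 of 125 (36%) in the fourth. The shares of all other Etv4 regions were 68.9% in the first part and 15.8% in the fourth, below the far regions by 8.27 points (1.50 to 13.98) and 6.19 points (0.943 to 12.4). In the other two parts of the Etv4 list and in all 4 parts of the Etv5 list, the intervals of the difference between far and other regions included 0. Without mostly multicopy regions the far share minus the other was 5.50 points (-1.77 to 11.7) in the first part of the Etv4 list and -2.14 points (-6.71 to 4.22) in the fourth, where 19 of 151 far regions (12.6%) overlapped. The only interval off 0 was then that of the first part of the Etv5 list, at 5.72 points (0.229 to 8.11).

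**Figure D1:**
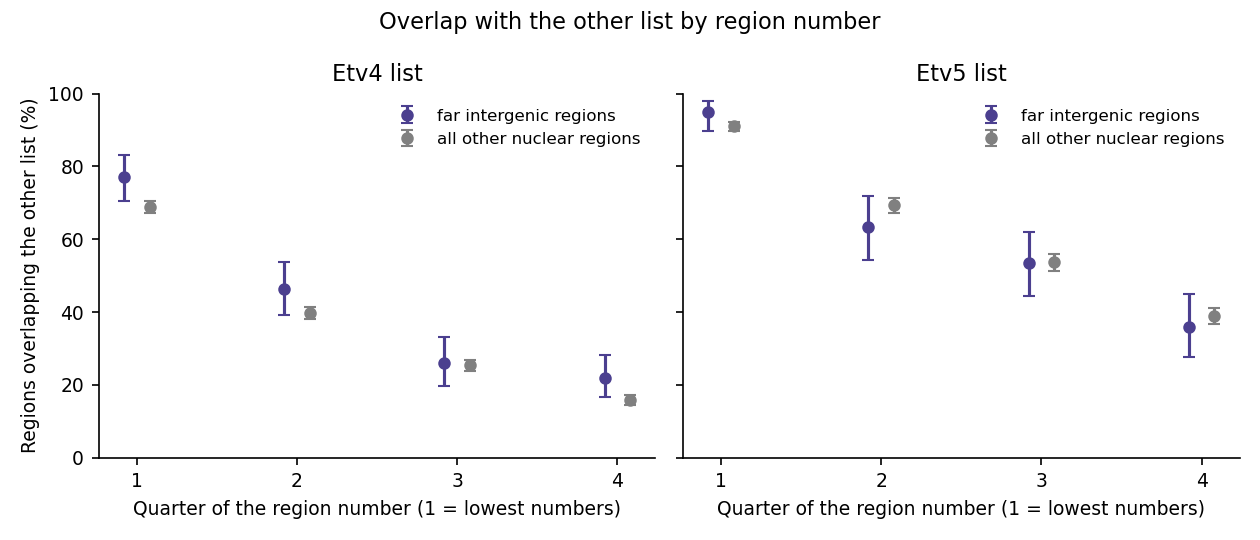
Share of regions that overlapped a region of the other list (y axis, percent) in 4 equal parts of the region numbers (x axis) for far regions and all other nuclear regions, with exact 95% intervals as bars. The share falls from the first part to the fourth, from 77.2 to 22.01% of far Etv4 regions and from 94.9 to 36% of far Etv5 regions.

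Far regions differed from regions nearer to genes in how much of their sequence was repeated elsewhere in the genome. A region is called mostly multicopy when more than 50% of its 36-base sequences, the stated read length, occur more than once in the assembly. Reads from such sequence cannot be placed with certainty. This was the case for 136 far Etv4 regions (17.9%, 15.3 to 20.9%) and 175 far Etv5 regions (33.7%, 29.7 to 38.0%). The shares among all other regions were 5.22 and 8.10%, so the differences were 12.7 points (10.1 to 15.6) and 25.6 points (21.6 to 29.8). Intergenic regions between 2 and 50 kb from a start had 9.24 and 14.2%. The differences from these were smaller, at 8.70 points (5.95 to 11.7) and 19.5 points (15.3 to 23.9). Of 8255 tiles of 500 bp sampled evenly from the far territory outside all regions, 17.2% were mostly multicopy.

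The 3 kinds of far regions were unequal in this respect. Mostly multicopy regions made up 84 of 322 shared regions (26.1%), 52 of 436 Etv4-only regions (11.9%) and 90 of 194 Etv5-only regions (46.4%). Etv5-only regions thus exceeded Etv4-only regions by 34.5 points (26.8 to 42.0). Repeat-masked sequence, the lower-case letters of the reference, had a median of 60.3% in Etv5-only regions, compared with 15.99% in shared and 12.2% in Etv4-only regions. Etv5-only regions were also lower in GC content, with a median of 39.8% beside 43.0 and 42.6%, and the tiles had 38.8%. Median lengths were 647 bp for shared, 542 bp for Etv4-only and 510 bp for Etv5-only regions.

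Most of the multicopy regions were related to each other. Each shared place was counted once, by its Etv4 region, which left 226 mostly multicopy regions. When those that had at least 10% of their 36-base sequences in common were joined, a comparison chosen after seeing the data, 175 of the 226 fell into a single group spread over 21 chromosomes. The group held 64 shared, 37 Etv4-only and 74 Etv5-only regions, and its members were fully repeat-masked at the median, with a GC content of 39.2%. Joining was transitive, so 2 members need not share sequence directly. No other group had more than 2 regions. Which repeat family the group belongs to is not given in the sources used here.

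Leaving out mostly multicopy regions changed the overlap between the lists in opposite directions. Among the remaining far regions 238 of 622 (38.3%) Etv4 regions and 240 of 344 (69.8%) Etv5 regions overlapped the other list. In comparison with all other Etv4 regions treated in the same way, the far regions then differed by 1.44 points (-2.39 to 5.42), so the excess of far Etv4 regions was no longer set apart from 0. Against intergenic regions between 2 and 50 kb from a start the difference was -4.53 points (-8.65 to -0.294). Far Etv5 regions then exceeded the other Etv5 regions by 5.87 points (0.699 to 10.6), but not the intergenic regions between 2 and 50 kb from a start, with 69.8 against 69.7% and a difference of 0.112 points (-5.32 to 5.17).

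The AP-1 pattern exceeded its share in tiles of the same territory by a larger factor than the ETS pattern did in each kind of far region. In the 500 bp around the midpoint, the AP-1 pattern occurred in 131 shared regions (40.7%, 35.3 to 46.3%), 203 Etv4-only regions (46.6%, 41.8 to 51.4%) and 36 Etv5-only regions (18.6%, 13.3 to 24.8%). The tiles, weighted to the GC content of the regions, carried it in 7.09, 7.16 and 7.02% of cases. The regions therefore exceeded the tiles by factors of 5.74, 6.51 and 2.64. Written backwards (ACTCAGT or ACTGAGT), the same letters were found in 9.01, 11.5 and 7.73% of the regions, against 6.94, 7.04 and 7.10% of the tiles.

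The ETS pattern was found in 19 shared regions (5.90%, 3.59 to 9.06%), 35 Etv4-only regions (8.03%, 5.65 to 10.99%) and 7 Etv5-only regions (3.61%, 1.46 to 7.29%). The corresponding tile shares were 3.50, 3.53 and 3.11%, which gave factors of 1.68, 2.27 and 1.16. In Etv5-only regions the interval of the ETS factor (0.471 to 2.35) overlapped that of the AP-1 factor (1.90 to 3.52). Without mostly multicopy regions the ETS shares were 7.56, 9.11 and 5.77%, with factors of 2.08, 2.53 and 1.80. The tiles kept their multicopy sequence in both sets, and its part in the change of the factors was not tested. In both sets the lower end of the interval exceeded the tiles in Etv4-only and shared regions, narrowly in the latter over all regions, and not in Etv5-only regions. The backwards pattern (TGAAGGAC or TGAAGGCC) occurred in 3.73, 2.06 and 1.55% of regions. Neither the ETS nor the AP-1 pattern was present in 186 shared regions (57.8%), 216 of the Etv4-only (49.5%) and 153 of the Etv5-only ones (78.9%). The ETS pattern is stricter than the GGAA core, so a region without it can still hold that core. Both patterns were present in 14, 18 and 2 regions.

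Between shared and Etv4-only regions the AP-1 difference was -5.88 points (-12.9 to 1.27) and the ETS difference -2.13 points (-5.73 to 1.70). Without mostly multicopy regions the AP-1 shares were 54.6% in shared and 52.6% in Etv4-only regions, a difference of 2.02 points (-6.03 to 9.98). The order thus turned, and both AP-1 intervals included 0. Under some other settings the interval did not include 0, since the AP-1 share of shared minus that of Etv4-only regions was -13.9 points (-23.5 to -3.83) in the longer 50% of each list and -13.2 points (-22.97 to -2.99) in the first 50% by number. The ETS difference in that first 50% was -7.21 points (-12.7 to -1.64). Etv5-only regions stood apart from both, since AP-1 was less frequent there by 22.1 points than in shared regions (14.1 to 29.4) and by 28.0 points than in Etv4-only regions (20.4 to 34.7). Without mostly multicopy regions 36 of 104 Etv5-only regions (34.6%) carried AP-1, and the differences were 20.01 points (8.54 to 30.5) and 17.99 points (7.22 to 27.8).

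**Figure D2:**
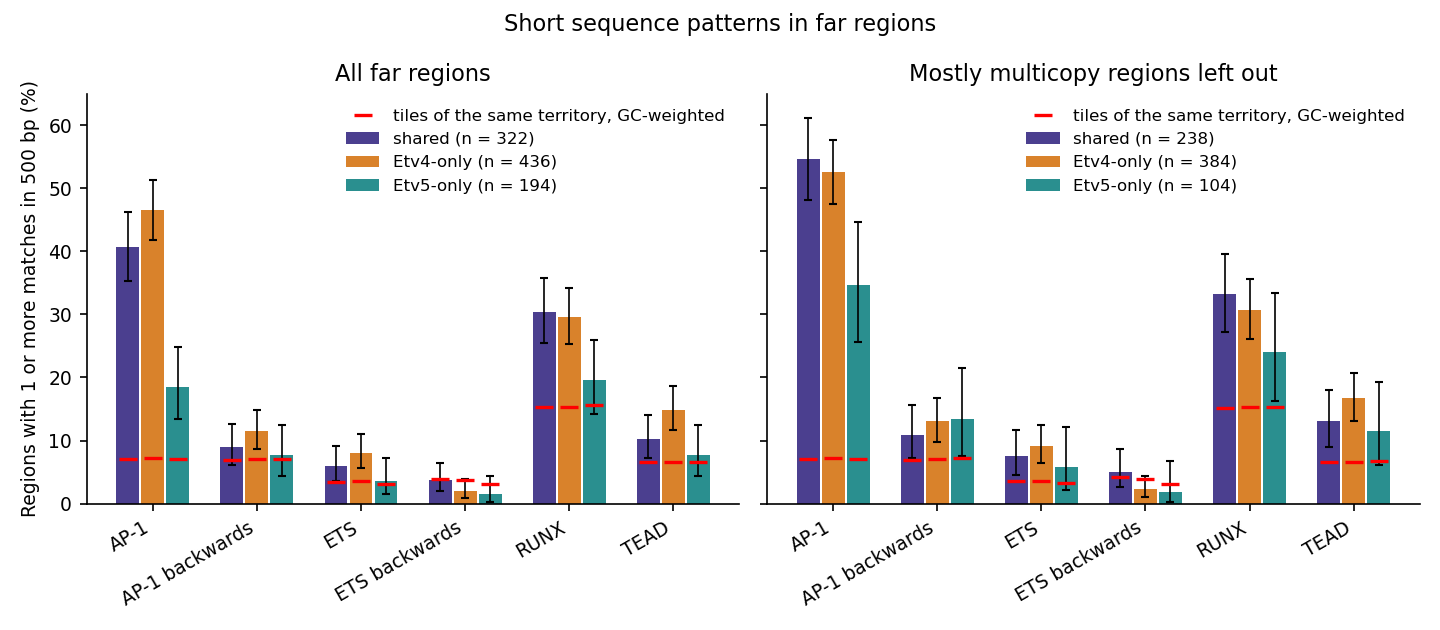
Share of far regions with at least 1 match of each pattern in the central 500 bp (y axis, percent) for shared, Etv4-only and Etv5-only regions, with exact 95% intervals as error bars and the GC-weighted tile share as red marks. The left panel has all far regions and the right panel leaves out mostly multicopy regions, where AP-1 reaches 54.6% of shared, 52.6% of Etv4-only and 34.6% of Etv5-only regions. The tiles keep their multicopy sequence in both panels.

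AP-1 matches were concentrated at the middle of the regions. Within 100 bp of the midpoint, shared regions had 1.74 AP-1 matches per kb, compared with 0.162 per kb at distances of 300 to 1000 bp, a ratio of 10.7. The ratio was 9.86 in Etv4-only and 4.67 in Etv5-only regions. For ETS it was 2.76 in shared regions and 3.21 in Etv4-only regions, from 13 and 22 central matches, and Etv5-only regions had 1 central match. The backwards AP-1 pattern gave ratios of 1.18, 1.75 and 1.91.

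**Figure D3:**
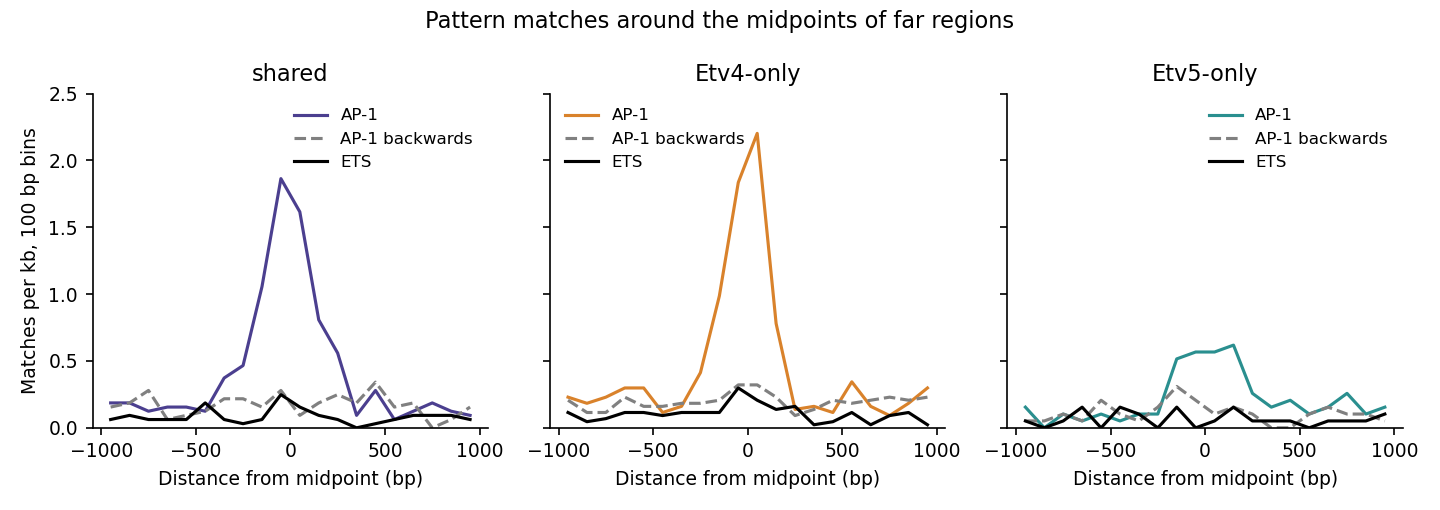
Matches per kb of the AP-1, backwards AP-1 and ETS patterns (y axis) in bins of 100 bp by distance from the region midpoint (x axis, bp) for each kind of far region. AP-1 peaks at the midpoint in shared regions (1.86 matches per kb) and Etv4-only regions (2.20), and reaches 0.619 in Etv5-only regions, while the backwards pattern reaches at most 0.342.

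RUNX factors, which also act in mammary epithelium, and TEAD factors, the DNA-binding partners of YAP, have short recognition sequences that were searched as well. The RUNX pattern (TGTGGTC or TGTGGTT) occurred in 98 shared (30.4%) and 129 Etv4-only regions (29.6%), 1.98 and 1.92 times the tile share, and in 38 Etv5-only regions (19.6%), 1.25 times the tile share. The TEAD pattern (ACATTCC) was found in 33 shared regions (10.2%), 65 of the Etv4-only (14.9%) and 15 of the Etv5-only ones (7.73%), with factors of 1.57, 2.26 and 1.16. The CEBP pattern (TTGCNNAA) was found at 1.25 times the tile share among shared, 1.14 times among Etv4-only and 1.10 times among Etv5-only regions. For the FOX pattern (TGTTTAC) the factors were 1.25, 1.50 and 0.693. Both factors of Etv5-only regions turned without mostly multicopy regions, to 0.834 for CEBP and 1.16 for FOX, from 21 and 9 of 104 regions. These were set against tiles that kept their multicopy sequence. The GRHL pattern (AACCGGTT) and the full NF1 consensus occurred in 1 far Etv4 region each, and the CTCF consensus in 2.

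Some AP-1 sites had a GGAA core, the central part of ETS sites, on either strand within 10 bp. Such close pairs were found in 41 of 131 shared regions with AP-1 (31.3%, 23.5 to 39.98%), 59 of 203 Etv4-only regions (29.1%, 22.9 to 35.8%) and 12 of 36 Etv5-only regions (33.3%, 18.6 to 51.0%). Among tiles with AP-1, weighted to the GC content of these regions, the shares were 22.99, 23.01 and 23.1%. The interval of shared regions lay just above the tile share, and those of Etv4-only and Etv5-only regions included it.

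The AP-1 share was also followed along the region numbers. In shared regions it went from 68 of 142 (47.9%) in the first of the 4 parts of the Etv4 list to 8 of 46 (17.4%) in the fourth. Etv4-only regions went from 26 of 42 (61.9%) to 57 of 163 (35.0%). Etv5-only regions did not share this order, with 2 of 7 in the first part, 4 of 45 (8.89%) in the second and 19 of 80 (23.8%) in the fourth. Multicopy sequence changed along the numbers as well, since 17 of 142 shared regions of the first part and 27 of 46 of the fourth were mostly multicopy. Without these, AP-1 was present in 67 of 125 (53.6%, 44.5 to 62.6%) shared regions of the first part and in 8 of 19 (42.1%, 20.3 to 66.5%) of the fourth. Etv4-only regions treated in the same way had 61.9% (45.6 to 76.4%) and 43.2% (34.6 to 52.1%), while shared regions of the second part, with 40 of 65 (61.5%), were above those of the first. Etv5-only regions had AP-1 in 4 of 17 (23.5%), 11 of 38 (28.9%) and 19 of 46 (41.3%) cases in the second, the third and the fourth part.

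The AP-1 share of far regions varied little with distance up to 200 kb, in a division by distance chosen after seeing the data. Among Etv4 regions that were not mostly multicopy, AP-1 was present in 149 of 271 (55.0%) at 50 to 75 kb from a transcript start, 91 of 162 (56.2%) at 75 to 100 kb and 84 of 167 (50.3%) at 100 to 200 kb. Beyond 200 kb it was present in 8 of 22 (36.4%, 17.2 to 59.3%). Etv5 regions of the same kind overlapped an Etv4 region in 112 of 144 cases (77.8%) at 50 to 75 kb and in 61 of 96 cases (63.5%) at 100 to 200 kb. Multicopy sequence was most frequent beyond 200 kb, with 12 of 34 Etv4 regions and 20 of 35 Etv5 regions.

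Far regions were also compared with intergenic regions of the same kind between 2 and 50 kb from a start. Over all regions the AP-1 share far from genes minus that nearer to genes was -9.61 points for shared (-15.4 to -3.62), 2.21 points for Etv4-only (-2.92 to 7.38) and -9.83 points for Etv5-only regions (-15.7 to -3.02). Once mostly multicopy regions were left out, every interval included 0. The AP-1 differences were -1.49 points (-8.36 to 5.26) for shared, 4.73 points (-0.774 to 10.2) for Etv4-only and -0.276 points (-9.58 to 9.96) for Etv5-only regions. For ETS they were -0.979 points (-4.14 to 3.32), -0.913 points (-3.80 to 2.63) and -0.408 points (-4.22 to 6.06). Against all Etv4 regions outside the far territory, which include promoters, AP-1 was more frequent in far regions by 7.05 points (3.46 to 10.7), and by 14.6 points (10.6 to 18.6) without mostly multicopy regions. The Etv5 difference was -2.81 points (-6.86 to 1.49) over all regions and 10.9 points (5.55 to 16.3) without mostly multicopy ones. The ETS pattern was less frequent in far regions, with a difference of -3.23 points (-4.94 to -1.11) for Etv4 and -2.49 points (-4.28 to -0.100) for Etv5. Without mostly multicopy regions these were -2.19 points (-4.22 to 0.322) and -0.791 points (-3.28 to 2.60), and both intervals included 0.

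Many far loci lay close together in the same gene-free stretch, that is, between neighbouring genes of any type in the GENCODE annotation. Of 4123 such stretches with far sequence, 619 held at least 1 locus and 75 held 3 or more. Those 75 stretches contained 297 of the 950 loci (31.3%). In total 263 loci (27.7%) had another locus within 10 kb, among them 98 of 320 loci in both lists (30.6%), 139 of 436 in the Etv4 list only (31.9%) and 26 of 194 in the Etv5 list only (13.4%). Without mostly multicopy loci, 65 stretches held 3 or more, and the shares with another locus within 10 kb were 37.1, 35.2 and 19.2%.

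Crowded and solitary loci were compared after seeing the data. In stretches with 3 or more loci that were not mostly multicopy, 90 of 261 (34.5%, 28.7 to 40.6%) were in both lists, 27 (10.3%, 6.93 to 14.7%) were in the Etv5 list only and 145 (55.6%, 49.3 to 61.7%) carried AP-1. Among loci alone in their stretch, 91 of 294 (31.0%, 25.7 to 36.6%) were in both lists, 54 (18.4%, 14.1 to 23.3%) in the Etv5 list only and 135 (45.9%, 40.1 to 51.8%) carried AP-1. Crowded minus solitary loci differed by 3.53 points (-4.25 to 11.3) in the share in both lists, by -8.02 points (-13.8 to -2.15) in that of the Etv5 list only and by 9.64 points (1.31 to 17.8) in that with AP-1.

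The 10 stretches with most loci, counted without mostly multicopy loci, held 64 loci, of which 21 were in both lists, 39 in the Etv4 list only and 4 in the Etv5 list only. AP-1 was present in 41 of them and the ETS pattern in 4. They are named here by the protein-coding genes nearest on each side. Any annotated gene ends a stretch, so a stretch can begin or end well short of the genes that name it.

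On chromosome 15, a stretch of 194 kb held 7 loci, and lay 50.7 kb from Asap1, which encodes a GTPase-activating protein for Arf, and 69.7 kb from the adenylyl cyclase gene Adcy8. Of these, 3 were in both lists, and 5 carried AP-1. The locus at chr15:64557878-64558896 had low numbers in both lists, 406 for Etv4 and 380 for Etv5. On the same chromosome, 6 loci lay in a stretch of 225 kb that adjoined Tars, the gene for threonyl-tRNA synthetase, and ended 215 kb from Npr3, which encodes the clearance receptor for natriuretic peptides. One of them, at chr15:11573565-11574991, contained the second longest far Etv5 region (1427 bp).

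Chromosome 4 contributed 3 of the 10 stretches. Between Cdkn2b, the gene for a cyclin-dependent kinase inhibitor that TGF-β is known to induce, and Dmrta1, which encodes a DM-domain transcription factor, 7 loci were packed into 25.5 kb. The locus at chr4:89529866-89530689, in both lists, had 4 AP-1 matches, the highest number in the 10 stretches. Both other stretches lay between Klf4, which encodes a zinc finger factor of epithelial cells, and the actin-like gene Actl7b. The one nearer to Klf4 had 6 loci and began 104 kb from the gene, and the other had 7 loci, 6 of them in the Etv4 list only, with the predicted gene Gm26657 nearest by transcript start.

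Tgfb2, the gene for a TGF-β ligand, had 6 loci in 33.4 kb of a stretch of 163 kb that lay 111 kb from Tgfb2 and 231 kb from Lyplal1. They were 168 to 200.4 kb from the transcript start of Tgfb2. Of these loci, 2 were in both lists, 3 in the Etv4 list only and 1 in the Etv5 list only, and 4 carried AP-1. None of the 6 was mostly multicopy.

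Runx1, which encodes a transcription factor of the RUNX family, had 6 loci in a gene-free stretch that began 48.3 kb from the gene, on the side of Setd4, and 2 more at a greater distance. The locus at chr16:92929862-92930799 was number 509 of the Etv4 list and 3937 of the Etv5 list. The next, at chr16:92948227-92949196, had numbers 848 and 1698 and 2 AP-1 matches. In all, 5 of the 8 Runx1 loci carried AP-1 and none carried the ETS pattern.

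Of the remaining stretches, that between the Notch ligand gene Jag1 and Btbd3 on chromosome 2 held 7 loci over 185 kb, with 2 in both lists. On chromosome 8, 6 loci lay in 33.9 kb beside Irf2bp2, which encodes a corepressor, and 6 lay over 446 kb between the cell polarity gene Pard3 and Nrp1, which encodes a receptor for semaphorins and VEGF. The stretch beside Irf2bp2 had the highest density of the 10, at 93.2 loci per Mb of far sequence, and that beside Pard3 the lowest, at 10.3.

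**Figure D4:**
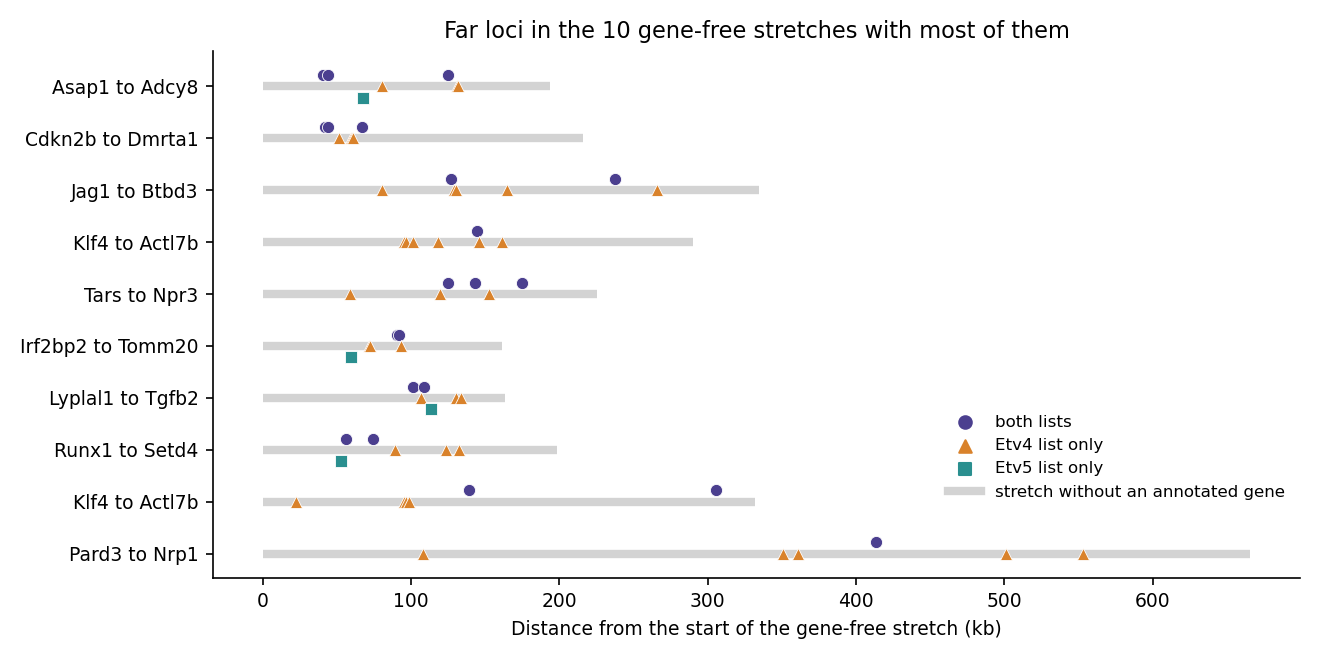
Positions of the 64 far loci that were not mostly multicopy in the 10 gene-free stretches with most of them (x axis, kb from the start of the stretch), with 1 row per stretch named by the protein-coding genes on either side. Circles are loci in both lists (21), triangles loci in the Etv4 list only (39) and squares loci in the Etv5 list only (4), and grey bars give the length of each stretch.

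Far loci had 558 different nearest protein-coding genes, which is 19.8% of the 2824 genes that are nearest to any far sequence. Of these 558 genes, 354 had 1 locus, 87 had 3 or more and 26 had 5 or more. Trps1, which encodes a GATA-type repressor, had most with 9 loci, 8 of them in the Etv4 list only. Dmrta1, Sox9, Gm26657 and Runx1 followed with 8 each, and 1 locus each of Trps1, Dmrta1 and Gm26657 was mostly multicopy. Without such loci Trps1, Sox9 and Runx1 had 8 each. Over all loci Asap1, Has2 and Jag1 had 7, and the first 2 genes with 6 loci in the order used were Cdh6 and Sox11.

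Sox9, a transcription factor gene known for distant enhancers, had loci on both sides, at 166 to 608 kb from its start. They comprised 3 loci in both lists, 2 in the Etv4 list only and 3 in the Etv5 list only, and 6 of 8 carried AP-1. The locus at chr11:112549097-112549695 was low in number in both lists, 1014 for Etv4 and 351 for Etv5, and lacked both patterns. At chr11:113032342-113033098 AP-1 and ETS patterns occurred together.

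Has2, the gene for a hyaluronan synthase, had 7 loci at 55.3 to 348 kb, of which that at chr15:56841225-56842261 was number 300 of the Etv4 list and 651 of the Etv5 list. Cdh6, which encodes a cadherin, had 6 loci at 63.4 to 1369 kb, 4 of them in both lists. Sox11, another gene of the Sox family, had 6 loci at 126 to 488 kb, and 5 carried AP-1.

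Genes of 6 lists relevant to these cells were then counted against the 19.8% of all genes near far sequence. Of the TGF-β signalling genes, 3 of 9 that could be nearest were nearest to a far locus, namely Tgfb2, Bmp2 and Inhba. Bmp2 and Inhba also encode ligands of the TGF-β family. Inhba had 3 loci at 724 to 747 kb, 2 of them in both lists, and Bmp2 had 1 locus, in the Etv5 list only, at 129 kb.

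For epithelial-mesenchymal transition (EMT) factors the count was 3 of 8. Twist1 had 1 locus in both lists at 83.5 kb, Twist2 had 2 in the Etv4 list only at 108 and 127 kb, and Zeb2 had 1 in the Etv4 list only at 338 kb. Each of these genes encodes a transcription factor that promotes EMT. AP-1 was present in the Twist1 locus and both Twist2 loci, and absent from that of Zeb2.

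Among epithelial and mammary factors 5 of 6 genes had a far locus. Beside Klf4 and Sox9, these were Gata3, a regulator of luminal mammary cells, with 3 loci at 392 to 1144 kb, Trp63, a factor of basal epithelial cells, with 1 locus at 152 kb, and Tfap2c with 1 locus at 92.0 kb. The Tfap2c locus was in the Etv4 list only and contained both patterns. Both far Gata3 loci beyond 1 Mb carried AP-1.

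In the list of AP-1, ETS and RUNX factors, Runx1 was the 1 gene of 10 with a far locus. Of the matrix and adhesion genes, 2 of 5 had one, the integrin gene Itga6 with 1 locus in the Etv4 list only and the matrix protein gene Tnc with 1 locus in both lists. Growth factors, receptors and feedback genes had 3 of 8. Myc, a growth-promoting transcription factor gene, had 4 loci at 395 to 902 kb, the cyclin gene Ccnd1 had 2 at 91.0 and 105 kb, and Spred2, which encodes an inhibitor of Ras signalling, had 3 loci in the Etv4 list only at 74.7 to 88.9 kb, all with AP-1. The lists have 5 to 10 such genes each, and the counts are a description.

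Density differed between chromosomes. Chromosome 15 had 71 far Etv4 regions or 3.82 per Mb of far territory, and 54 Etv5 regions or 2.91 per Mb, which were 2.09 and 2.32 times the mean of all chromosomes. Chromosome 13 followed for Etv4 with 3.41 per Mb, and chromosome 4 for Etv5 with 2.04 per Mb. Chromosome 14 was lowest for Etv4, at 0.632 per Mb, while its far territory of 20.6 Mb was larger than that of chromosome 15, at 18.6 Mb. Far Etv5 regions were least dense on the Y chromosome, at 0.560 per Mb, and without mostly multicopy regions on chromosome 14, with 2 regions or 0.0973 per Mb. For Etv4 the lowest value without such regions was 0.187 per Mb, from 2 regions on the Y chromosome. The far territory kept its multicopy sequence in these values, which lowers them on chromosomes where such sequence is frequent. Copy number of the chromosomes in EpRas cells was not analysed here, and its part in these densities was not tested.

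**Figure D5:**
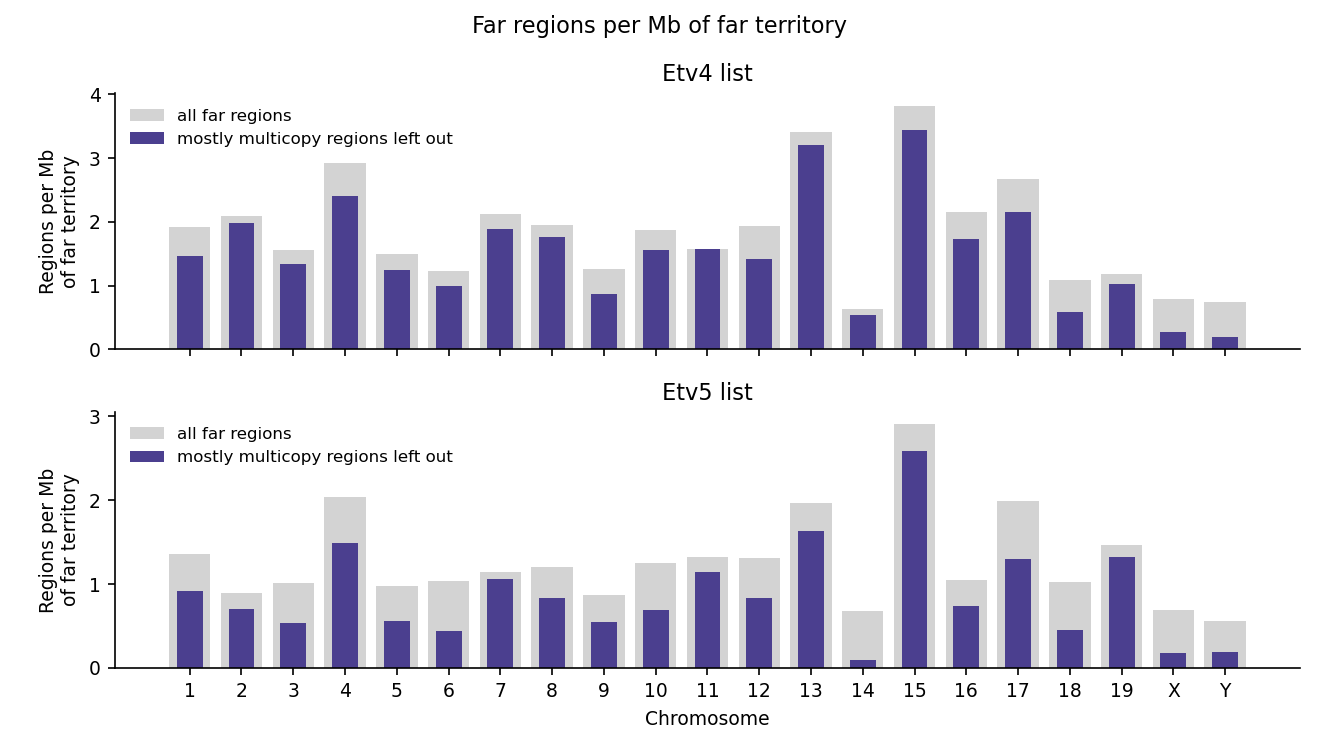
Far regions per Mb of far territory (y axis) on each chromosome (x axis) for the Etv4 and Etv5 lists, with all far regions as grey bars and those that were not mostly multicopy as purple bars. Both kinds of bar use the same territory, with its multicopy sequence. Chromosome 15 is highest in both lists, at 3.82 Etv4 and 2.91 Etv5 regions per Mb.

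Single far regions stood out by position, number or length. The region farthest from any transcript start, at chr1:114673957-114674391 in the Etv4 list only, lay 546 kb away, with Cntnap5a as the nearest protein-coding gene at 1011 kb. Next came 2 regions near Brinp3 on chromosome 1, at 490.0 kb in the Etv4 list and 426 kb in the Etv5 list, which did not overlap. The remaining 2 were the Etv4 and Etv5 regions of a shared locus at chr2:100964478-100965133, 337 kb from a start. None of these 5 regions carried an AP-1 or ETS pattern, and none was mostly multicopy.

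The far regions with the lowest numbers also lacked both patterns. The 5 lowest numbers of the Etv4 list were 25, 35, 39, 53 and 67, and those of the Etv5 list were 21, 32, 41, 44 and 50. All 10 regions overlapped the other list. Loci near Hsfy2, Ddx18 and Tnc were among the lowest in both lists. Their multicopy shares were between 4.76 and 33.4%, except for 67.0% in an Etv5 region on the Y chromosome.

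Of the longest far regions, the first in both lists was at chr4:42378211-42380434 near Gm21586 (2224 bp in the Etv4 list), and it consisted of multicopy sequence throughout. The second longest Etv4 region, at chr7:145110561-145112247, measured 1687 bp and had unique sequence. The regions nearest to the distance limit were an Etv4 region at 50.013 kb, near Eya1, and 1 Etv5 region at 50.035 kb on the far side, and the regions of both lists at a locus near Mbnl1, at 49.912 and 49.971 kb, on the near side.

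Some far regions fell in genes of another annotation. By the RefSeq gene models of the same assembly, a check chosen after seeing the data, 92 far Etv4 regions (12.1%) and 64 far Etv5 regions (12.3%) had their midpoint in a gene. Long non-coding RNA genes accounted for 73 and 47 of these, and protein-coding genes for 7 and 7. Some lay in the stretches named above, which are thus not free of genes in both annotations. The non-coding genes were Gm30632 beside Asap1, Gm12610 between Cdkn2b and Dmrta1, and Gm35426 on the side of Tgfb2. The share was 15.5% among shared, 9.63% among Etv4-only and 6.70% among Etv5-only regions, and without mostly multicopy regions 17.2, 9.90 and 10.6%. Intergenic regions between 2 and 50 kb from a start had 14.4% (Etv4) and 14.5% (Etv5).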

How the data were processed

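The files hold 1 list of regions for each of 2 ChIP-seq libraries. Per the study's methods, the authors cut reads to 36 bp, mapped them to mm10 with bowtie2 and called regions in each library alone with CisGenome (window 300 bp, p 0.1), without an input library. Cutting and mapping are stated for the study's FAIRE data, and the ChIP-seq section points back to them. The deposited score was 1000 for every region and was not used. The deposited positions in base pairs and the region number, whose criterion is not given in the sources used here, were used. Depth is unknown.

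Midpoints were compared with GENCODE M21, and sequence was read from GRCm38.p6. Mitochondrial regions (6 Etv4 and 8 Etv5) were left out. Patterns were searched on both strands, and the GGAA core is itself part of the ETS pattern. The 825473 tiles of 500 bp cover the far territory outside all regions and were weighted to the GC content of the regions in classes of 2 points with at least 100 tiles. Mostly multicopy tiles were kept throughout, also where mostly multicopy regions were left out. A match of any pattern (ETS, AP-1, CEBP, FOX, RUNX, TEAD, GRHL, NF1 or CTCF) means the letters only.

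The members and gene lists were chosen with earlier results of these data known. Named were the 10 stretches with most loci and the 10 genes most often nearest, the 5 farthest regions, the 5 lowest numbers and longest regions of each list, the regions at the distance limit, and list genes nearest to a far region. The sequences printed beside list genes were chosen after seeing the data. Regions on chromosome 18 were left out of the choice of sequences. With 1 library per antibody no test was made. Alternatives varied the distance, annotation, overlap, window, pattern, chromosomes and sets of regions. Intervals came from scipy 1.17.1, tables from pandas 2.3.3 and numpy 2.4.6, sequence counts from numba 0.67.0 and plots from matplotlib 3.10.9, all under Python 3.11.15. The scripts were tested on simulated data.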

Additional observations from a re-analysis of the deposited data

How the results depend on the processing

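Of 81 values under alternative settings, 47 stayed within the interval of the reported value or, for counts, within 1.5 times. The rest follow, and beyond the change of regions or bases that each setting makes, the cause was not tested. With a limit of 100 kb there were 237 Etv4 and 177 Etv5 regions, 53.7% of Etv5 regions overlapped, Etv4-only regions had AP-1 in 39.4% and ETS in 5.63%, and 21 stretches held 3 or more loci. With protein-coding genes as the only annotation there were 2573 and 1709 regions and 383 such stretches. Without mostly multicopy regions the overlaps were 38.3% (Etv4) and 69.8% (Etv5), and AP-1 occurred in 54.6% of shared, 52.6% of Etv4-only and 34.6% of Etv5-only regions. In the longer 50% of each list the overlaps were 47.5 and 56.5%. AP-1 occurred there in 56.7% of Etv4-only and 12.8% of Etv5-only regions. ETS occurred in 0% of these Etv5-only regions, with an exact interval that reached 2.58%. In the first 50% by number AP-1 occurred in 57.1% of Etv4-only and 13.04% of Etv5-only regions, and ETS in 11.4 and 1.09%. With 50% of both regions in common the overlaps were 36.9 and 53.9%, and AP-1 occurred in 26.4% of Etv5-only regions. In a window of 200 bp AP-1 occurred in 28.6, 34.2 and 10.3% of shared, Etv4-only and Etv5-only regions, and ETS in 5.05% of Etv4-only and 0.515% of Etv5-only regions. The ETS pattern with C at its second base occurred in 0.621, 0.229 and 0%, and the exact interval of the last reached 1.88%. AP-1 was more frequent in shared and in Etv4-only than in Etv5-only regions in 10 of 10 settings, and more frequent in shared than in Etv4-only regions in 1 of 10, the setting without mostly multicopy regions. The settings did not include the fourth part by region number, where the 3 kinds had close shares without mostly multicopy regions. The interval of the shared minus Etv4-only difference in AP-1 was off 0 in 3 of the 10, in the longer 50%, the first 50% by number and with 50% of both regions in common, where it was -9.28 points (-16.4 to -1.96). ETS was more frequent in Etv4-only than in Etv5-only regions in 11 of 11 settings, with an interval that included 0 in 5, and in shared than in Etv5-only regions in 10 of 11 (not with 50% of both regions in common), with 0 inside the interval in 7 of the 11, the reported one among them. It was more frequent in shared than in Etv4-only regions in 2 of 11. No paired analysis was possible because there were no replicates to pair and no result came from a test.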
